A study of Mus musculus with 7 samples.

Results

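The genes described here are the immunoglobulin rows of a bulk RNA-seq count table from 2 mouse glioblastoma (GBM) models. They were chosen as the rows whose symbol begins with Igha, Ighg, Ighm, Ighv, Igkv, Igkc, Iglc, Iglv or Jchain and whose counts summed to at least 10 over the 7 libraries. This rule kept 162 of 49492 rows. Of 359 rows with such a symbol, 154 had no count in any library and 43 had 1 to 9 counts. Igkv2-109 stood just outside the limit with 9 counts and Igkv1-122 just inside it with 10. The members were 77 of 183 Ighv rows (heavy chain variable segments), 75 of 160 Igkv rows (kappa variable segments), Igha, Ighm and 4 Ighg genes (heavy chain constant genes), Iglc2, Iglv3, Jchain and Ighmbp2. Ighmbp2 encodes a helicase and shares only the prefix, so it was left out of every sum below, which leaves 161 members. The same counts chose the members and give their levels, so levels, sums and shares per library are descriptions without a test.

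The series holds 4 libraries of NPCTKO and 3 of NSCHRas-shp53 GBMs, all labelled C57BL/6 and 3 months of age. NPCTKO tumors arose from embryonic neural progenitor cells electroporated in utero with Cas9, luciferase and guide RNAs against tumor suppressor genes, among them Trp53 and Nf1, plus a piggyBac reporter, and EGFP+ or DsRed+ GBM cells were sorted from the dissociated tumor by FACS. NSCHRas-shp53 tumors arose after lentivirus carrying Trp53 short hairpin RNA and constitutively active human HRAS was delivered to the ventricular-subventricular zone of grown mice, and RNA came from whole GBM tissue without sorting. Model and sorting therefore change together and cannot be told apart. No library of normal brain, spleen or blood was among those analysed here. The paper speaks of 4 NPCTKO samples and 3 NSCHRas-shp53 GBMs, but the sources do not say whether each came from a separate mouse. The p-values therefore measure only the spread between these libraries, which may be partly technical.

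Antibodies are made by B cells and, in bulk, by plasma cells, the secretory end stage of that lineage. Each B cell joins 1 V segment to short D and J segments (heavy chain) or to a J segment (light chain), and its progeny keep that choice, so the V segments in a sample give a coarse view of the clones that contribute RNA. The constant gene behind the heavy chain V region sets the isotype: Ighm is used by naive cells, while Ighg genes and Igha are used after class switching. Jchain encodes the peptide that links IgA and IgM units into polymers.

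V segments are near copies of one another, which matters for how reads are assigned to them. The V exons of 5 segments are shown because they led the counts of sorted NPCTKO libraries. Each was read from the GENCODE M21 annotation of GRCm38 (the assembly of mm10) on the coding strand, and at most its last 300 bases are given. The capitals run from the last in-frame cysteine codon to the end of the segment, which is the germline start of CDR3, the loop in which clones with the same V segment differ. Ighv1-7 (chr12:114538495-114538794, minus strand) led the Ighv counts of NPCTKO 1 and 2, and Ighv1-82 (chr12:115952538-115952831, minus strand) led those of NPCTKO 3. Igkv6-25 (chr6:70215660-70215957, plus strand) led the Igkv counts of NPCTKO 1, Igkv4-79 (chr6:69042972-69043271, minus strand) those of NPCTKO 2 and Igkv4-55 (chr6:69607275-69607574, minus strand) those of NPCTKO 3.
Ighv1-7: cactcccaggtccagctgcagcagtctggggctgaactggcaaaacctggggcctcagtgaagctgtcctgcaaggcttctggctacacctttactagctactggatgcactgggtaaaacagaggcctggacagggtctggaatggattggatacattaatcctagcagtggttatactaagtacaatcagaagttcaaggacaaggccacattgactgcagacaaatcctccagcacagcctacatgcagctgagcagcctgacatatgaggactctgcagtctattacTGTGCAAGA
Ighv1-82: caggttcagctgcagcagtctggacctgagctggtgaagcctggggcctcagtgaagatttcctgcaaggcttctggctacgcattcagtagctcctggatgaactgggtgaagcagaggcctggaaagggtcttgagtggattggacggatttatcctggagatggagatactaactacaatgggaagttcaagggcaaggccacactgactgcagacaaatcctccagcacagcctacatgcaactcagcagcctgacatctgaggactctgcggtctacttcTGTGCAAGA
Igkv6-25: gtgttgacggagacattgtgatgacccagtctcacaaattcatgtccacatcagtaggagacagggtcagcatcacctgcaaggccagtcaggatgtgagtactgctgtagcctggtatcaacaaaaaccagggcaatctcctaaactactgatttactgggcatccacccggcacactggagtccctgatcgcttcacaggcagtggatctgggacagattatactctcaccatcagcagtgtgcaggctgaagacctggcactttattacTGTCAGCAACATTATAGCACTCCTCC
Igkv4-79: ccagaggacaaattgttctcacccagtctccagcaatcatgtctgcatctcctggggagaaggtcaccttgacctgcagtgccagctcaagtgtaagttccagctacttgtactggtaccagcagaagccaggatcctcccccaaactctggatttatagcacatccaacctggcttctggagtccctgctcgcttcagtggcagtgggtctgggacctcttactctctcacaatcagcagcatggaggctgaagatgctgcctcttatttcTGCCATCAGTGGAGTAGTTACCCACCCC
Igkv4-55: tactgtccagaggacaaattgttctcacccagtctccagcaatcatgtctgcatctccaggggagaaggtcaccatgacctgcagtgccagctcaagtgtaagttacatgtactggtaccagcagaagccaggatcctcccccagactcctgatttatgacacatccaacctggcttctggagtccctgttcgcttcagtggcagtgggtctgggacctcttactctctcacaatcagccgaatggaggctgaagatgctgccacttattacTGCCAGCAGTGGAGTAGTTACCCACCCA

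Both heavy chain segments ended in the same 9 bases, TGTGCAAGA, and the kappa segments in 26 or 28 bases that differed between them. The V exons of Ighv1-7 and Ighv1-82 were 83.3% identical, and those of Igkv4-79 and Igkv4-55 93.2%. The closest other segment was nearer still: Ighv1-4 matched 97.7% of Ighv1-7 with 147 bases in 1 unbroken run, and Igkv6-17 matched 95.6% of Igkv6-25 with a run of 124 bases. Over the members, the median identity to the closest other segment was 94.6% for Ighv and 93.9% for Igkv. In 7 Ighv and 2 Igkv members it reached 98% or more, and 1 Ighv member had an identical V exon elsewhere in its class. How the authors' counting assigned reads that fit several segments was not given in the sources used here, so the counts of such neighbors are uncertain between them.

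Of the 162 members, 160 had the same coordinates in GENCODE M21 as in the count table. The Ighv members covered chr12:113578504-116000461 and all lay on the minus strand. The Igkv members covered chr6:67609713-70704177, with 26 on the plus and 49 on the minus strand. The annotation marks 74 of 77 Ighv members (96.1%) and 74 of 75 Igkv members (98.7%) as functional genes rather than pseudogenes. Among Ighv and Igkv rows below the limit, 39 of 106 (36.8%) and 26 of 85 (30.6%) were so marked. The annotated pseudogenes among the members were Ighv1-14, Ighv1-30, Ighv1-62 and Igkv4-77. The Ighv pseudogenes held 0.0463 and 4.29% of the Ighv counts in NPCTKO 1 and 2, 27 of 145 (18.6%) in NPCTKO 3, 13 of 41 (31.7%) in NPCTKO 4 and 0 in NSCHRas-shp53. Igkv4-77 held 7 of 55 Igkv counts (12.7%) in NPCTKO 4 and at most 0.507% in any other library.

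Immunoglobulin RNA was concentrated in 2 of the 4 sorted libraries. The 161 members took 2.58% of all counts in NPCTKO 1 (95% Wilson interval 2.57 to 2.59), 0.668% in NPCTKO 2 (0.664 to 0.671), 0.0136% in NPCTKO 3 (0.0130 to 0.0141) and 0.00231% in NPCTKO 4 (0.00208 to 0.00256). The whole-tissue NSCHRas-shp53 libraries 1 to 3 stood at 0.0103, 0.0114 and 0.00882%. The mean was 0.816% ± 1.22 (SD, n = 4) in NPCTKO and 0.0102% ± 0.00130 (SD, n = 3) in NSCHRas-shp53. NPCTKO 1 and 2 were above every other library, NPCTKO 3 was above and NPCTKO 4 below all 3 NSCHRas-shp53 libraries, so the models overlapped. These intervals cover counting error only.

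On the CPM scale (counts per library size, scaled between libraries by TMM), the sum was 33304, 8736, 116 and 20.9 in NPCTKO 1 to 4, and 104, 101 and 75.5 in NSCHRas-shp53 1 to 3. NPCTKO 1 exceeded NPCTKO 2 by 3.81-fold, NPCTKO 2 exceeded NPCTKO 3 by 75.4-fold, and the NSCHRas-shp53 libraries spanned 1.38-fold. Of the 162 members, 107 had a CPM in both NPCTKO 1 and 2 at least 10 times that in both NPCTKO 3 and 4, compared with 1.29% of all 20080 rows with at least 10 counts. A member could reach the limit of 10 counts through NPCTKO 1 and 2 alone, so this number is partly set by the rule. Of the 161, only 21 had at least 10 counts in NPCTKO 3 and 7 in NPCTKO 4. Of the 161, 149 members had a count in NPCTKO 1, 148 in NPCTKO 2, 68 in NPCTKO 3 and 42 in NPCTKO 4, and 80, 55 and 73 did in the NSCHRas-shp53 libraries. Total counts were between 15002873 and 19840860, so depth differed far less than these values. A level of 3 counts, taken as the floor, was 0.129 to 0.233 CPM. In bulk RNA, fewer cells of a type and less RNA per cell cannot be told apart.

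**Figure D1:**
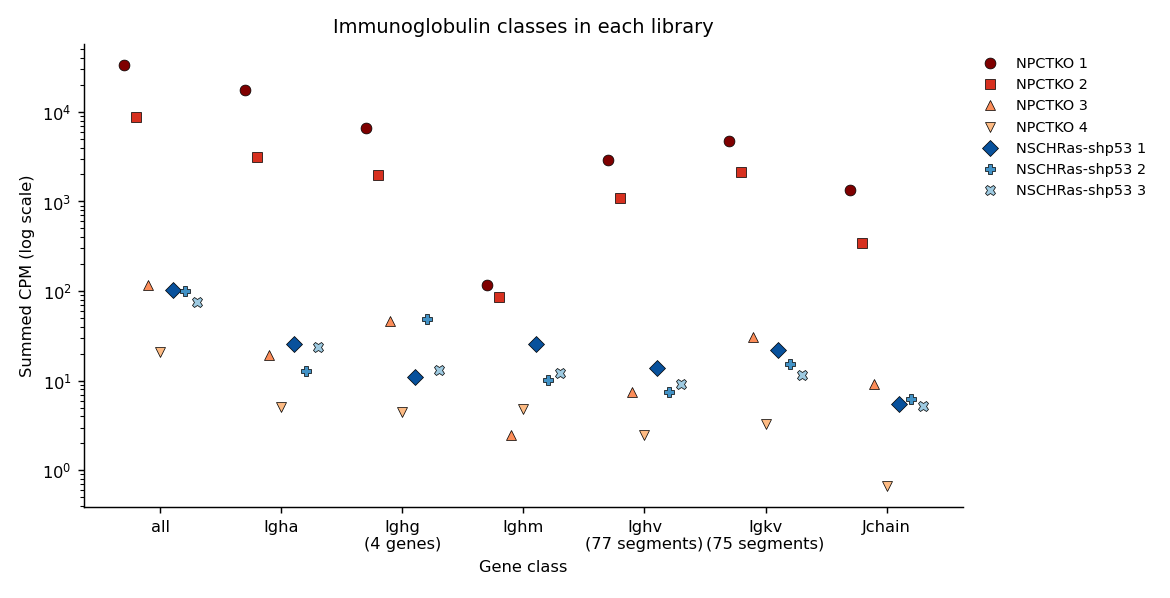
Summed CPM (log scale) of the immunoglobulin classes, with 1 point per library. NPCTKO 1 and 2 lie highest in each of the 7 columns, for all members together at 33304 and 8736 against 20.9 to 116 in the other 5 libraries.

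The heavy chain constant genes are described first. Igha, the IgA constant gene and the member with most counts, was counted at 17668, 3096, 19.3 and 5.07 CPM in NPCTKO 1 to 4, and at 25.8, 12.7 and 24.0 CPM in NSCHRas-shp53. Ighg1 stood at 4429, 1165, 21.1 and 1.57 CPM in NPCTKO, and at 3.98, 8.87 and 1.34 CPM in NSCHRas-shp53. Ighg2c, the IgG2 subclass gene of the C57BL/6 strain, stood at 1684, 566, 16.3 and 1.45 CPM, and at 3.44, 11.7 and 3.76 CPM. For each of these genes NPCTKO 1 and 2 were highest and NPCTKO 3 was above NPCTKO 4, and the models overlapped.

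Ighg2b stood at 408, 234, 8.74 and 1.15 CPM in NPCTKO 1 to 4, and at 3.17, 27.9 and 7.90 CPM in NSCHRas-shp53. Ighg3 reached at most 7.08 CPM, in NPCTKO 2. Ighm, the constant gene of unswitched antibody, stood at 118, 86.0, 2.50 and 4.83 CPM in NPCTKO and at 25.4, 10.1 and 12.1 CPM in NSCHRas-shp53, so that NPCTKO 3 and 4 lay below all 3 NSCHRas-shp53 libraries. Ighm had the smallest gap of the heavy chain constant classes. The lower of NPCTKO 1 and 2 was 17.8-fold above the higher of NPCTKO 3 and 4, compared with 160-fold for Igha and 42.6-fold for the Ighg genes. Against the highest NSCHRas-shp53 library the same ratio was 3.39-fold for Ighm, 120-fold for Igha and 40.4-fold for the Ighg genes.

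The mix of isotypes differed from library to library. Igha held 72.7, 60.1, 28.3 and 35.1% of the heavy chain constant counts in NPCTKO 1 to 4, and 41.5, 17.7 and 48.9% in NSCHRas-shp53. The Ighg genes held 26.8, 38.3, 68.0 and 31.4%, and 17.7, 68.1 and 26.5%. Ighm held 0.485, 1.67, 3.66 and 33.5%, and 40.8, 14.1 and 24.6%. Igha led in NPCTKO 1, 2 and 4 and in NSCHRas-shp53 1 and 3, while the Ighg genes led in NPCTKO 3 and NSCHRas-shp53 2. In NPCTKO 4 these shares rest on 239 counts, and the interval of each was wide: 29.4 to 41.4% for Igha, 25.8 to 37.5% for Ighg and 27.8 to 39.7% for Ighm, which overlap.

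Counts grow with transcript length, so the shares were also taken per kb of annotated exon. The length was the union of all annotated exons of a gene. It was 1326 bases for Ighg2c, 1886 for Ighm and 2512 to 2678 for Igha and the other Ighg genes. This can differ from the length of the RNA present, so which gene leads per kb depends on the annotation. Igha then held 67.5, 53.4, 22.4 and 28.2% in NPCTKO, and 33.8, 14.5 and 41.5% in NSCHRas-shp53. Ighm held 0.637, 2.099, 4.09 and 38.0%, and 47.0, 16.3 and 29.5%. Igha still led in NPCTKO 1 and 2 and in NSCHRas-shp53 3, whereas Ighm led in NPCTKO 4 and in NSCHRas-shp53 1. The Ighg share, 41.1% ± 18.5 (SD, n = 4) in NPCTKO and 37.5% ± 26.9 (SD, n = 3) in NSCHRas-shp53 by counts, ran from 26.8 to 68.0% in NPCTKO and from 17.7 to 68.1% in NSCHRas-shp53.

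**Figure D2:**
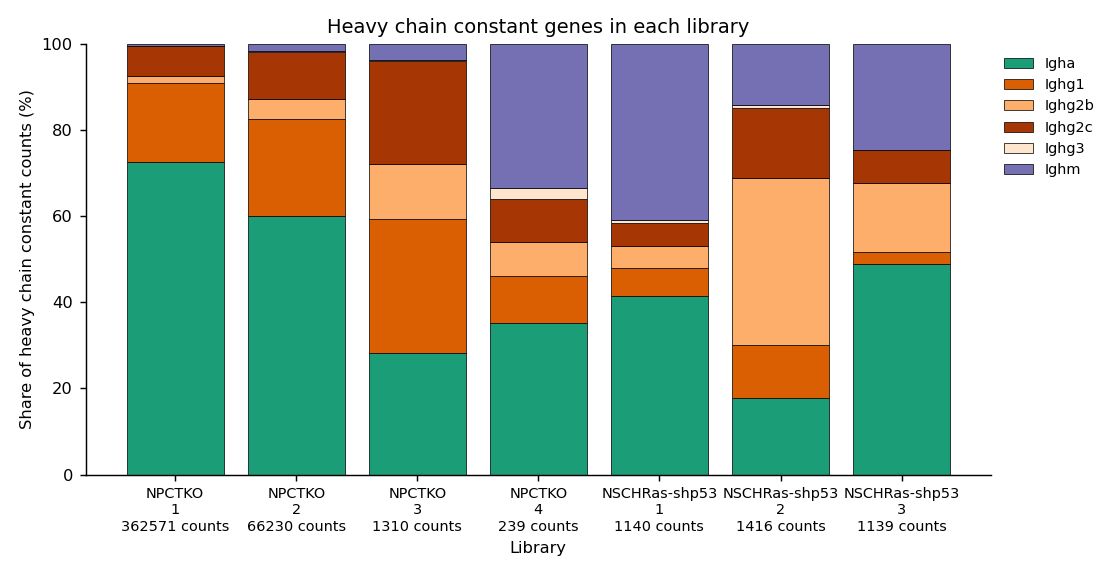
Share of the heavy chain constant counts (%) held by each constant gene, with 1 bar per library and the counts behind it below the bar. Igha fills 72.7 and 60.1% of NPCTKO 1 and 2, and Ighm fills 33.5% of NPCTKO 4 and 40.8% of NSCHRas-shp53 1.

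Within the Ighg genes the leading subclass also changed. Ighg1 held 67.9, 59.1, 45.5 and 34.7% of the Ighg counts in NPCTKO 1 to 4, and 36.1, 18.1 and 10.3% in NSCHRas-shp53. Ighg2b held 6.25, 11.9, 18.9 and 25.3%, and 28.7, 57.0 and 60.6%. Ighg2c stayed between 23.8 and 35.1% in all 7 libraries. Ighg1 was thus the largest of the 4 genes by counts in each NPCTKO library and in NSCHRas-shp53 1, and Ighg2b in NSCHRas-shp53 2 and 3. Ighg2c has the shortest annotated exons of the 4, and per kb of exon it led in NPCTKO 3, NPCTKO 4 and NSCHRas-shp53 1 (38.0, 16.2 and 9.06% of the heavy chain constant counts per kb). By counts, the ranges of the models did not overlap for the Ighg2b share and overlapped for that of Ighg1. The Ighg2b gap lay within counting error. The interval was 16.9 to 36.2% in NPCTKO 4 (75 Ighg counts) and 22.9 to 35.3% in NSCHRas-shp53 1 (202 Ighg counts). Shares of one total are not independent, and no test was made.

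Jchain (chr5:88519809-88527891), which joins IgA and IgM units, stood at 1342, 346, 9.21 and 0.664 CPM in NPCTKO 1 to 4 and at 5.46, 6.18 and 5.22 CPM in NSCHRas-shp53. Its FPKM values, a separate table that also scales by transcript length, were 980, 239, 5.46 and 0.423, and 2.73, 2.69 and 2.86. Both tables order the NPCTKO libraries in the same way. Per 100 Igha counts, Jchain held 7.59, 11.2, 47.7 and 13.1 counts in NPCTKO, and 21.1, 48.6 and 21.7 in NSCHRas-shp53. The ratio was lowest in the 2 libraries with most immunoglobulin RNA. That of NPCTKO 4 rests on 11 Jchain and 84 Igha counts, so its order against NPCTKO 2 is uncertain.

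Light chain RNA was almost wholly kappa as far as V segments show it. Igkv segments held 70355 and 27079 counts in NPCTKO 1 and 2 and 55 to 592 counts in the other 5 libraries. Iglv3, the single lambda V segment among the members, held 98 and 24 counts in NPCTKO 1 and 2, at most 3 elsewhere, and 0 in NPCTKO 3, NPCTKO 4 and NSCHRas-shp53 3. Igkv therefore made up 99.9% ± 0.0689 (SD, n = 4) of the light chain V counts in NPCTKO and 99.5% ± 0.490 (SD, n = 3) in NSCHRas-shp53. Iglc2, a lambda constant gene, held 463, 242, 4 and 0 counts in NPCTKO and 4, 9 and 5 in NSCHRas-shp53. Per 100 Ighv counts there were 163, 190, 408 and 134 Igkv counts in NPCTKO and 161, 206 and 127 in NSCHRas-shp53.

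The kappa constant gene itself could not be used. Igkc (chr6:70726435-70726966) had 0 counts in all 7 libraries and lies wholly inside the annotated gene Gm43291. Gm43291 held 193 and 82 counts in NPCTKO 1 and 2, and 3 to 18 in the other 5 libraries. Iglc1, Iglc3 and Iglv1 also had 0 counts in all 7 libraries, and each lies inside 2010309G21Rik, which held 86 and 94 counts in NPCTKO 1 and 2 and at most 2 elsewhere. The lambda share is therefore that of the segments the table counts, not of all lambda RNA, and the sums above leave out kappa constant RNA.

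The V segments of NPCTKO 1 were dominated by a few. Ighv1-7 alone held 42.0% of its 43226 Ighv counts (41.6 to 42.5, Wilson), Ighv1-64 17.2% and Ighv5-17 13.6%, and the 3 together 72.9%. Igkv6-25 held 39.9% of its 70355 Igkv counts (39.6 to 40.3), Igkv4-57-1 14.7% and Igkv6-23 8.37%. The effective number of segments (the inverse of the summed squared shares, which equals the number of segments when all are equally abundant) was 4.35 for Ighv and 5.05 for Igkv, out of 71 and 69 segments with a count.

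NPCTKO 2 was far more even. Its leading Ighv segment was again Ighv1-7, at 11.9% of 14226 counts (11.4 to 12.5), followed by Ighv1-19 with 8.93% and Ighv14-2 with 7.48%. Its leading Igkv segments were Igkv4-79 with 8.42% of 27079 counts (8.09 to 8.75), Igkv6-25 with 7.54% and Igkv16-104 with 6.25%. The effective numbers were 20.6 for Ighv and 24.0 for Igkv, out of 72 and 67 segments with a count. The intervals of the leading shares in NPCTKO 1 and 2 were far apart.

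In NPCTKO 3 the leaders were Ighv1-82 with 27.6% of 145 counts (20.96 to 35.4), Ighv2-2 and the pseudogene Ighv1-62 with 17.2% each, and Igkv4-55 with 18.6% of 592 counts (15.7 to 21.9), Igkv4-80 with 15.9% and Igkv6-23 with 13.0%. Its effective numbers were 5.92 and 9.87. NPCTKO 4 had only 41 Ighv and 55 Igkv counts, led by the pseudogene Ighv1-14 with 29.3% (17.6 to 44.5) and Igkv16-104 with 16.4% (8.86 to 28.3). At this depth an order of segments in NPCTKO 4 was not detectable.

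Each NSCHRas-shp53 library had leaders of its own. NSCHRas-shp53 1 was led by Ighv3-1 with 17.9% of 252 counts (13.6 to 23.1), ahead of Ighv14-1 and Ighv1-53, and by Igkv1-117 with 22.4% of 406 counts (18.6 to 26.7), ahead of Igkv4-57 and Igkv3-1. NSCHRas-shp53 2 was led by Ighv1-22 with 29.3% of 147 counts (22.5 to 37.1), ahead of Ighv5-6 and Ighv9-3, and by Igkv10-96 with 29.0% of 303 counts (24.2 to 34.4), ahead of Igkv12-41 and Igkv4-61. NSCHRas-shp53 3 was led by Ighv9-3 with 23.4% of 214 counts (18.2 to 29.5), ahead of Ighv1-26 and Ighv10-3, and by Igkv4-57-1 with 19.9% of 271 counts (15.6 to 25.1), ahead of Igkv4-57 and Igkv4-63. The first segment of each class was a different one in each of these 3 libraries, while Igkv4-57 was second in NSCHRas-shp53 1 and 3, and Ighv9-3 was among the 3 leading Ighv segments of NSCHRas-shp53 2 and first in 3.

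Libraries with more counts can show more segments, so each was also thinned to 41 Ighv and 55 Igkv counts, the depth of NPCTKO 4. At that depth NPCTKO 1 to 4 were expected to show 11.1, 21.6, 10.1 and 15 Ighv segments, and NSCHRas-shp53 17.3, 11.5 and 17.5. For Igkv the numbers were 14.8, 25.4, 17.6 and 20 in NPCTKO, and 22.1, 17.8 and 20.6 in NSCHRas-shp53. The effective number at that depth was highest in NPCTKO 2 (14.0 for Ighv and 16.9 for Igkv) and lowest in NPCTKO 1 (4.02 and 4.70), although NPCTKO 3 showed fewer Ighv segments. The mean effective number without thinning was 9.70 ± 7.43 (SD, n = 4) in NPCTKO and 9.90 ± 3.77 (SD, n = 3) in NSCHRas-shp53 for Ighv, so the models differed by less than their spread.

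**Figure D3:**
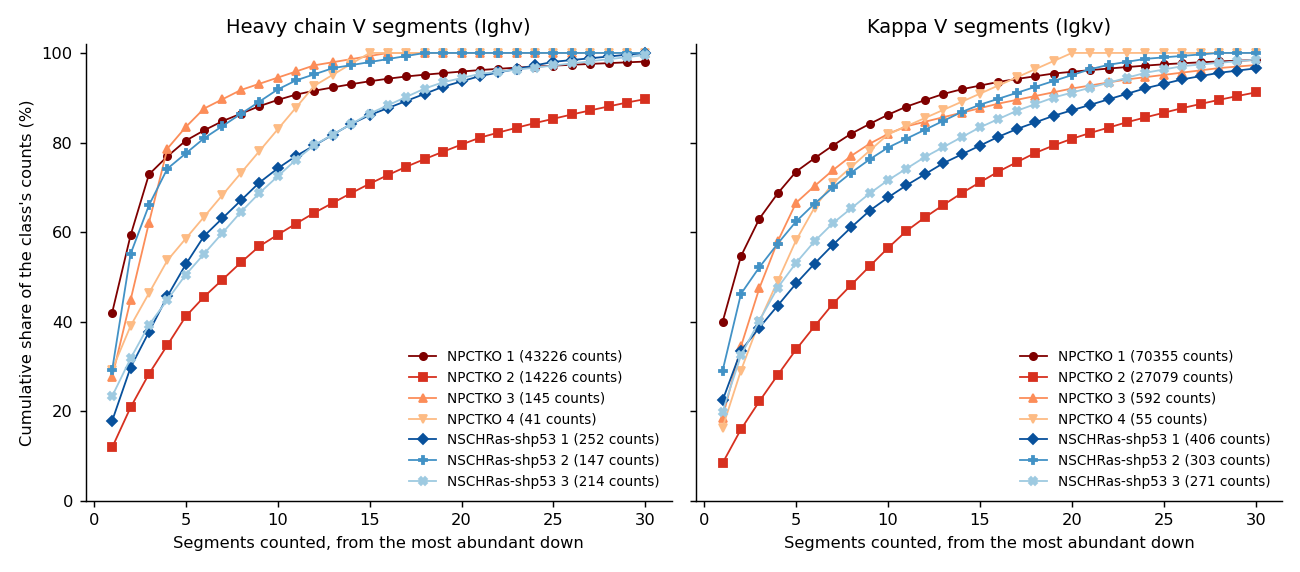
Cumulative share (%) of the Ighv counts (left) and Igkv counts (right) held by the most abundant segments, counted from the top down, with 1 line per library. The first 3 Ighv segments hold 72.9% in NPCTKO 1 and 28.3% in NPCTKO 2, whose line is the lowest in both panels.

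NPCTKO 1 and 2, the libraries with most immunoglobulin RNA, shared leading segments, Ighv1-7 and Igkv6-25, but held many segments in unequal shares. Igkv4-81 had 1525 counts in NPCTKO 1 and 0 in NPCTKO 2, and Ighv1-36 had 604 and 0, while Igkv3-3 had 0 in NPCTKO 1 and 1543 in NPCTKO 2. Igkv4-79 had 98 counts in NPCTKO 1 and 2279 in NPCTKO 2, and Ighv14-2 had 10 and 1064. In all, 7 segments had at least 100 counts in 1 of the 2 libraries and 0 in the other, among them Ighv1-12, Igkv4-53, Igkv4-62 and Igkv17-127. These segments were named after their values were seen.

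Of 46 Ighv segments with at least 100 counts in NPCTKO 1 and 2 together, the share of the class was at least 10 times as large in NPCTKO 1 for 6, at least 10 times as large in NPCTKO 2 for 17, and within 10 times for 23. Of 52 Igkv segments, 5 and 20 fell on those sides and 27 within. The overlap of the segment shares by the Morisita-Horn index, which is 0 for no shared segments and 1 for equal shares, was 0.408 for Ighv and 0.340 for Igkv. Among all 21 pairs of libraries it ran from 0.0232 to 0.408 for Ighv and from 0.0610 to 0.351 for Igkv, so that NPCTKO 1 and 2 were the most alike pair for Ighv and near the top for Igkv. Of 55 Ighv segments with at least 10 counts in NPCTKO 1 and 64 in NPCTKO 2, 45 were common, which is 81.8 and 70.3% of each list. For Igkv, 47 of 58 in each were common (81.0%).

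**Figure D4:**
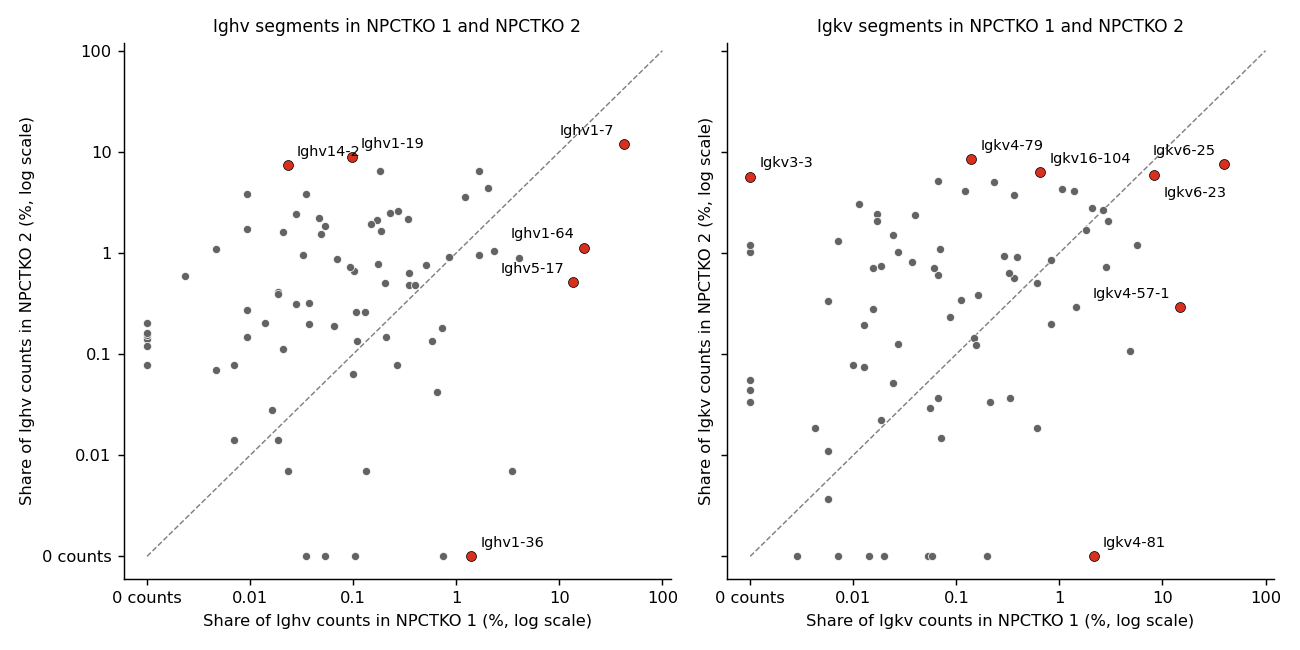
Share of the Ighv counts (left) and Igkv counts (right) held by each segment in NPCTKO 1 (horizontal) and NPCTKO 2 (vertical), in percent on log scales, with the line of equal shares dashed. Segments with 0 counts sit at the mark for 0, such as Igkv4-81 with 1525 counts in NPCTKO 1 alone and Igkv3-3 with 1543 in NPCTKO 2 alone, and red points are named.

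The leading segment of NPCTKO 1 and 2, Ighv1-7, had 18165 and 1695 counts there, 0, 2, 0, 0 and 2 counts in NPCTKO 3, NPCTKO 4 and NSCHRas-shp53 1 to 3. Igkv6-25 had 28096 and 2042 counts, then 22, 2, 0, 6 and 0. Ighv1-82 had 520 and 513 counts in NPCTKO 1 and 2, 40 and 2 in NPCTKO 3 and 4, and 0, 4 and 0 in NSCHRas-shp53. The first segments of the NSCHRas-shp53 libraries were minor in some of the others and not in all. Ighv1-22 had 43 counts in NSCHRas-shp53 2 and at most 8 in any other library. Igkv4-57-1, first in NSCHRas-shp53 3, was the second Igkv segment of NPCTKO 1 with 10326 counts (14.7%), and Igkv10-96, first in NSCHRas-shp53 2, held 10.5% of the Igkv counts of NPCTKO 3. No Ighv segment and 3 Igkv segments had a count in all 7 libraries, and 20 Ighv and 7 Igkv segments had counts in NPCTKO 1 or 2 only.

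V segments are grouped into families by sequence likeness. Family Ighv1, which holds 42 of the 77 Ighv members, took 73.9, 54.1, 49.0 and 68.3% of the Ighv counts in NPCTKO 1 to 4 and 39.7, 46.9 and 42.5% in NSCHRas-shp53. Family Igkv6, with 8 members, took 49.8% of the Igkv counts in NPCTKO 1 and 22.1, 26.7 and 7.27% in NPCTKO 2 to 4, against 11.1, 9.90 and 5.17% in NSCHRas-shp53. Family Igkv4, with 21 members, took 31.3, 30.6, 45.3 and 25.5% in NPCTKO, and 30.3, 12.2 and 50.2% in NSCHRas-shp53. Among the Ighv families, Ighv1 was the largest in every library.

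The members were compared between the models with edgeR's quasi-likelihood test over all 16091 genes that passed the filter on low counts, with Benjamini-Hochberg adjustment. Only 42 of the 162 members passed that filter. A member that passed only through the libraries where it was high had to differ, so the counts over these 42 describe them alone. By this test 5.28% of all genes were lower and 7.77% higher in NSCHRas-shp53, and of the 42 members 2 were lower and 0 higher. Of the 42, 24 had an unadjusted p under 0.05. No share of all genes at that limit is given for this count or those of the lists below, so they are not read as enrichment. DESeq2 called 42 of 119 lower and 0 higher, Ighmbp2 not counted, and of all genes it called 9.41% lower and 11.1% higher.

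The 2 members called were V segments, of which Ighv1-14 is annotated as a pseudogene. Ighv1-82 was counted at 34.9, 39.9, 2.08 and 0.121 CPM in NPCTKO 1 to 4 and at 0, 0.203 and 0 CPM in NSCHRas-shp53, with a log2 fold change of -8.04 (SE 2.17, edgeR adjusted p = 0.0454). Ighv1-14 was counted at 1.07, 3.58, 0.104 and 0.725 CPM and had 0 counts in all NSCHRas-shp53 libraries, which makes it at least 28.0-fold lower against a floor of 3 counts over the group (edgeR adjusted p = 0.0463). NPCTKO 4 lay below NSCHRas-shp53 2 for Ighv1-82, and for Ighv1-14 NPCTKO 3 rests on 2 counts. Leaving out any 1 NSCHRas-shp53 library ended both calls of Ighv1-82 and Ighv1-14, with edgeR adjusted p between 0.1055 and 0.174. Ighv1-82 did not pass the filter without NPCTKO 1, 2 or 3, nor Ighv1-14 without NPCTKO 1, 2 or 4. Both thus passed it only through NPCTKO and could only be lower in NSCHRas-shp53. Their p-values are therefore no support for a difference.

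The groups did not overlap in CPM for 2 of the 42 members, against 31.3% of all genes tested. They were Ighv1-14 and the helicase gene Ighmbp2, which stood at 42.2, 27.7, 22.7 and 19.5 CPM in NPCTKO and 9.88, 11.3 and 13.6 CPM in NSCHRas-shp53 and missed the threshold (log2 fold change -1.27, SE 0.37, edgeR adjusted p = 0.0560). None of the constant genes or Jchain passed the threshold in edgeR. Igha had a log2 fold change of -7.96 (SE 2.72, edgeR adjusted p = 0.0902), Ighg1 of -8.22 (SE 2.59, edgeR adjusted p = 0.0726), Ighg2c of -6.50 (SE 2.17, edgeR adjusted p = 0.0849) and Jchain of -6.24 (SE 2.18, edgeR adjusted p = 0.0962). Ighg2b had -3.65 (SE 1.74, edgeR adjusted p = 0.197) and Ighm -1.74 (SE 1.21, edgeR adjusted p = 0.369). DESeq2 called Igha, Ighg1, Ighg2c and Jchain lower.

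The direction of 4 of these genes rested on NPCTKO 1 and 2. Without both of them, the fitted log2 fold change was 0.80 for Igha, 1.41 for Ighg2b, 2.15 for Ighm and 0.21 for Jchain, that is, toward NSCHRas-shp53, while it was -1.24 for Ighg1 and -0.47 for Ighg2c. This fit was chosen with the levels of the libraries known. In that fit 0 members were lower and 2 were higher, Ighm (edgeR adjusted p = 0.0480) and Ighv9-3 (log2 fold change 7.66, SE 1.43, edgeR adjusted p = 0.0249), of 16 members tested, while 8.95% of all genes were higher and 7.40% lower. Ighv9-3 had 1742 and 126 counts in NPCTKO 1 and 2, 0 in NPCTKO 3 and 4, and 16, 16 and 50 in NSCHRas-shp53. Without NPCTKO 1 and 2 it passed the filter only through NSCHRas-shp53 and could only be higher there. Its p-value is therefore no support for a difference. NPCTKO 1 and 2, which were left out, were also the libraries with the highest Ighm. The p-value of Ighm is thus no support for a difference either.

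The libraries also differed in markers of other cells. The calls of each list below stand beside 5.28% of all genes lower and 7.77% higher in NSCHRas-shp53 by edgeR. The summed CPM of 14 markers of tumor-associated microglia and macrophages (TAM) was 21704, 28213, 600.1 and 4171 in NPCTKO 1 to 4 and 9251, 3300 and 3898 in NSCHRas-shp53, with P2ry12 at 0 in all 7 libraries. C1qa, C1qb, C1qc and Ctss led this list, and of 13 genes tested only Mrc1 was called, as higher in NSCHRas-shp53 (edgeR adjusted p = 0.0453), a call lost without any 1 library other than NSCHRas-shp53 2 (between 0.0531 and 0.169). The lower of NPCTKO 1 and 2 was thus 5.20-fold above the higher of NPCTKO 3 and 4 for these markers. The sum of 16 T and NK cell markers was 113, 127, 15.8 and 46.3 CPM in NPCTKO and 83.5, 62.4 and 118 CPM in NSCHRas-shp53, and of 15 tested 0 were called by edgeR, 0 had an unadjusted p under 0.05 and 0 of 16 were called by DESeq2. For the 161 immunoglobulin members the same ratio was 75.4-fold. NPCTKO 2 held the most TAM marker RNA and NPCTKO 1 the most immunoglobulin RNA, and NPCTKO 3 had the least TAM marker RNA but 5.55-fold more immunoglobulin RNA than NPCTKO 4. The part of these cells in the immunoglobulin counts was not tested.

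The labels name GBM cells for the sorted libraries. The sum of 10 oligodendrocyte precursor (OPC) markers was 4708, 5964, 3345 and 2986 CPM in NPCTKO and 1127, 1131 and 756 CPM in NSCHRas-shp53. Of 9 tested, 6 were lower in NSCHRas-shp53 (Sox10, Olig2, Pdgfra, Cspg4, Nkx2-2 and Cacng4), compared with 5.28% of all genes. The median log2 fold change of the list was -2.12, against -0.0971 over all genes tested. Without any 1 NSCHRas-shp53 library the calls of Pdgfra, Olig2 and Nkx2-2 were lost (edgeR adjusted p between 0.0546 and 0.102), and that of Sox10 without NSCHRas-shp53 2 (0.0545) or 3 (0.0607), while those of Cspg4 and Cacng4 remained in each of these fits. Gpr17 was at 0 in all 7 libraries. Red cell markers were highest in NSCHRas-shp53 1 and 2. The 7 of them summed to 39.0, 32.0, 0.780 and 4.11 CPM in NPCTKO and 253, 155 and 22.4 CPM in NSCHRas-shp53, and Hba-a2 and Hbb-bt were called higher there, of 4 tested. The call of Hbb-bt was lost without NPCTKO 2, NPCTKO 4 or any 1 NSCHRas-shp53 library (edgeR adjusted p between 0.0583 and 0.111) and that of Hba-a2 without NSCHRas-shp53 2 (edgeR adjusted p = 0.0594). Of 10 granulocyte markers, S100a9 stood at 50.7 CPM in NPCTKO 1, where the list summed to 107 CPM, and at 0.156 to 3.60 CPM elsewhere, and of 5 tested 0 were called (0 at an unadjusted p under 0.05, 1 of 6 by DESeq2).

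Of 15 plasma cell markers, 11 were higher in both NPCTKO 1 and 2 than in the other 5 libraries, compared with 23.5% of all 20080 rows with at least 10 counts. The same held for 11 of 14 TAM, 5 of 10 OPC and 4 of 16 T and NK cell markers. The pattern was therefore not particular to genes of the B lineage. The exceptions were Sdc1, Slamf7 (highest in NPCTKO 4, at 42.4 CPM), Creld2 (206 CPM in NPCTKO 4 and 192 CPM in NPCTKO 1) and Eaf2 (lowest in NPCTKO 2, at 1.25 CPM). Mzb1, a chaperone of antibody secretion, stood at 164, 110, 1.56 and 0.362 CPM in NPCTKO 1 to 4 and at 0.873, 1.11 and 0.604 CPM in NSCHRas-shp53. Pou2af1, a B lineage coactivator, stood at 59.9, 33.7, 0.468 and 0.362 CPM, and at 0.273, 0.608 and 0.734 CPM. Tnfrsf17, the survival receptor BCMA, reached 2.01 and 1.32 CPM in NPCTKO 1 and 2 and at most 0.181 CPM elsewhere. For these 3 genes NPCTKO 1 and 2 were far above the rest, while Xbp1, a driver of the secretory program used by many cells, stood at 349, 318, 88.1 and 139 CPM in NPCTKO and 125 to 140 CPM in NSCHRas-shp53.

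Sdc1, the plasma cell surface marker CD138 that other cells also carry, stood at 142, 78.1, 52.2 and 33.4 CPM in NPCTKO and 174, 120 and 250 CPM in NSCHRas-shp53. The 14 plasma cell genes tested had a median log2 fold change of -1.54, against -0.0971 over all genes tested. Of the 14, 6 had an unadjusted p under 0.05, and DESeq2 called 6 of 15 lower. By edgeR 2 were lower in NSCHRas-shp53 and 0 higher, compared with 5.28% and 7.77% of all genes. The 2 were Derl3 (38.6, 25.4, 8.43 and 21.4 CPM against 1.53, 1.52 and 1.68 CPM) and Creld2, genes of protein folding in the endoplasmic reticulum. The 4 most abundant of the list, Xbp1, Txndc5, Sdc1 and Creld2, are not specific to plasma cells.

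Of 16 mature B cell markers, 11 were higher in both NPCTKO 1 and 2 than in the other 5 libraries, compared with 23.5% of all 20080 rows and 11 of 14 TAM markers. Among the exceptions, Ebf1 (14.5 CPM) and Fcrl1 (4.59 CPM) were highest in NSCHRas-shp53 1, and Cr2 (2.45 CPM) and Fcer2a (0.989 CPM) in NPCTKO 3. Cd79a, a chain of the B cell receptor, stood at 77.8, 44.4, 1.20 and 1.93 CPM in NPCTKO and 1.47, 0.963 and 0.777 CPM in NSCHRas-shp53. Ms4a1, which encodes CD20, was at 0 in all 7 libraries, and Pax5 reached at most 1.21 CPM. Summed, the 16 mature B cell genes stood at 339, 412, 12.8 and 40.8 CPM in NPCTKO and 107, 53.1 and 56.8 CPM in NSCHRas-shp53, led by Cd37 and Cd22. Of 14 tested, 1 was lower in NSCHRas-shp53, Tnfrsf13c (the BAFF receptor), and 0 higher (the call was lost without any 1 NSCHRas-shp53 library, edgeR adjusted p between 0.0637 and 0.0991), with 5 at an unadjusted p under 0.05 and 5 of 15 called lower by DESeq2.

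Of the list of 11 germinal centre and early B cell genes, some were near or at 0 and others were not. Rag1, Rag2 and Vpreb2 had no count in any library, and Igll1 reached at most 0.156 CPM. Of the 3 genes of this list of 11 that were tested, Bcl6 was higher and S1pr2 lower in NSCHRas-shp53, and both are also used outside germinal centres. Bcl6 stood at 30.3, 29.2, 13.7 and 23.2 CPM in NPCTKO 1 to 4 and at 51.0, 64.5 and 66.6 CPM in NSCHRas-shp53. S1pr2 stood at 69.6, 59.8, 48.5 and 64.6 CPM, and at 21.4, 24.1 and 34.7 CPM. Each call was lost without any 1 NSCHRas-shp53 library (edgeR adjusted p between 0.0666 and 0.144) and without NPCTKO 4 (0.0647 for Bcl6 and 0.0597 for S1pr2), and that of S1pr2 also without NPCTKO 1 (0.0809) or 2 (0.0740). The third, Vpreb3, stood at 9.39 and 4.67 CPM in NPCTKO 1 and 2 and at 0.156 to 0.760 CPM in the other 5 libraries.

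The models overlapped in CPM for 9 of 11 receptors for antibody, while 5786 of all 20080 rows with at least 10 counts did not overlap. Fcgr2b (18.3 to 127 CPM in NPCTKO and 166 to 372 CPM in NSCHRas-shp53) and Fcrls (5.01 to 64.1 and 108 to 327 CPM) did not overlap, and neither passed the threshold (edgeR adjusted p = 0.131 and 0.0789). Of 9 tested, 0 were called in either direction by edgeR, 2 had an unadjusted p under 0.05, and DESeq2 called 1 of 11 higher. Their sum was 1194, 1346, 72.3 and 357 CPM in NPCTKO and 1433, 657 and 873 CPM in NSCHRas-shp53. Fcer1g, the shared signalling chain, stood at 280, 251, 11.2 and 81.4 CPM in NPCTKO and 209, 151 and 127 CPM in NSCHRas-shp53, and Fcgr2b, Fcgr3 and Fcgr4 were the other abundant members. Pigr, which carries IgA across epithelia, reached at most 0.469 CPM.

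Factors that keep plasma cells in a niche changed in both directions. Of 8 tested, Tnfsf13b (the survival factor BAFF) and the chemokine Cxcl13 were lower in NSCHRas-shp53, and the cytokine Il6 and the chemokine Ccl28 were higher. Among all genes tested, 5.28% were lower and 7.77% higher. Tnfsf13b stood at 71.7, 66.0, 24.3 and 44.2 CPM in NPCTKO and 5.90, 7.80 and 17.8 CPM in NSCHRas-shp53, without overlap (log2 fold change -2.29, SE 0.54, edgeR adjusted p = 0.0300). Cxcl13 stood at 43.6, 39.0, 4.32 and 24.2 CPM, and at 1.97, 3.50 and 2.85 CPM (log2 fold change -3.32, SE 0.76, edgeR adjusted p = 0.0272). Leaving out NPCTKO 1, NPCTKO 2, NSCHRas-shp53 1 or NSCHRas-shp53 2 ended both calls, with edgeR adjusted p between 0.0537 and 0.128, and leaving out NSCHRas-shp53 3 ended that of Cxcl13 (0.119). Il6 stood at 0.939, 0.856, 1.20 and 1.15 CPM in NPCTKO and 6.60, 5.88 and 5.01 CPM in NSCHRas-shp53 (log2 fold change 2.48, SE 0.41, edgeR adjusted p = 0.00919). Ccl28 reached at most 0.572 CPM in NPCTKO and stood at 2.89 to 4.49 CPM in NSCHRas-shp53, and its call was lost without NSCHRas-shp53 3 (edgeR adjusted p = 0.0587). Within NPCTKO, Tnfsf13b and Cxcl13 were highest in libraries 1 and 2, and both were higher in NPCTKO 4 than in NPCTKO 3, unlike the immunoglobulin sum. Cxcr4 and Cxcl12 were not called, and Tnfsf13 and Ccr10 were at 0 in all 7 libraries.

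**Figure D5:**
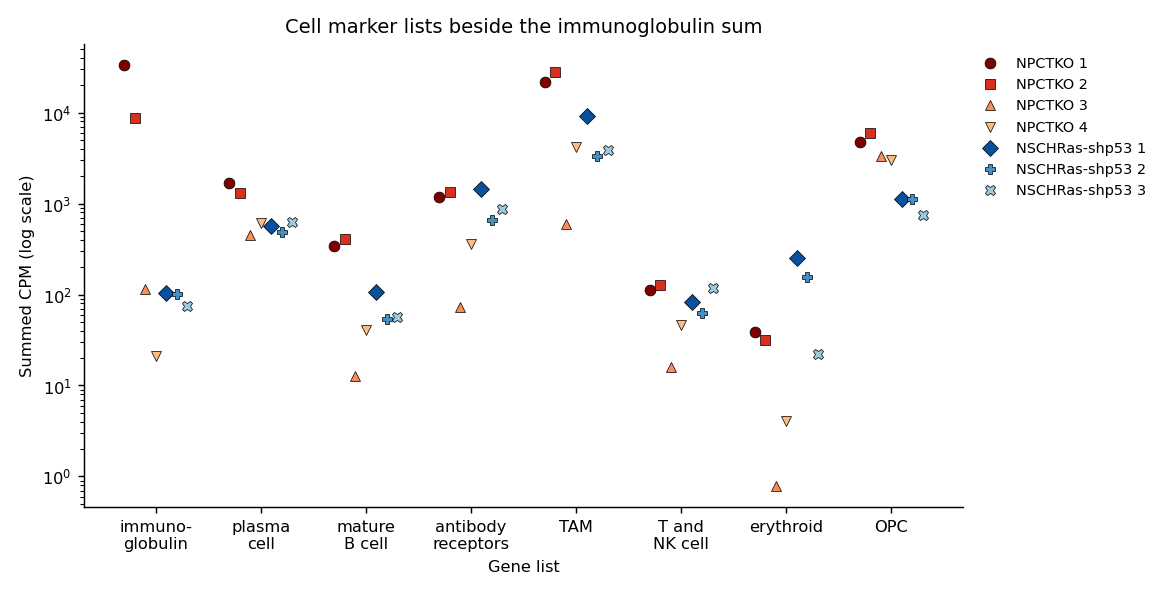
Summed CPM (log scale) of the immunoglobulin members and of 7 marker lists, with 1 point per library. The immunoglobulin points spread from 20.9 to 33304, wider than any of the lists, and NPCTKO 1 and 2 also lie highest in the plasma cell, mature B cell, TAM and OPC columns but not in the antibody receptor, T and NK cell and erythroid columns.

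Over the 7 libraries, the non-members whose log2(CPM + 1) followed the immunoglobulin sum most closely were Txndc5 (Pearson r = 0.990), Phc2, Kbtbd4, Pfkl, Mzb1 (r = 0.987), Rnf167, Ogfod3, Ssna1, Vhl and Gm43291 (r = 0.983). With 7 libraries, of which 2 set the correlation, 682 of 14929 genes had r over 0.9, so a high value is not particular to these genes. Txndc5, a disulfide isomerase of the endoplasmic reticulum, stood at 417, 313, 133 and 110 CPM in NPCTKO and at 132, 135 and 150 CPM in NSCHRas-shp53. Of the 10, Txndc5 and Mzb1 were also in the plasma cell list, and Gm43291 is the gene that contains Igkc.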

How the data were processed

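Bulk RNA-seq of 4 NPCTKO and 3 NSCHRas-shp53 libraries was analysed. The sorted NPCTKO and the unsorted NSCHRas-shp53 libraries were poly(A)-selected with a kit that does not keep strand, per the labels. For the deposited raw counts of each gene, the authors trimmed reads (Cutadapt 1.16 in the submitters' processing notes) and aligned them to mm10 with TopHat2 2.1.1. The counting tool was not given in the sources used here. Deposited FPKM values came from Cufflinks 2.2.1, run by the authors. That table names 2 of the 162 members, and 3767 of its 28538 rows carry no name.

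Models were compared with edgeR 4.0.16 in R 4.3.3 (quasi-likelihood test, TMM factors, filterByExpr, two-sided, Benjamini-Hochberg adjusted p under 0.05 over all genes tested), in the direction NSCHRas-shp53 minus NPCTKO. CPM are counts relative to the TMM-scaled library size. DESeq2 1.42.0 and limma 3.58.1 on log2(FPKM + 1) and log2(FPKM + 0.1) were alternatives, with other size factors, filters, left-out libraries and a replicate block. edgeR was tested on simulated data. Shares, thinned numbers and sequences were computed with Python 3.11.15, numpy 2.4.6, pandas 2.3.3 and scipy 1.17.1, and figures with matplotlib 3.10.9. Total counts per library ranged from 15002873 to 19840860, and the floor was set at 3 counts.

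The members and all lists of genes were chosen with earlier results of these data known. Named were the constant genes and Jchain, the 3 leading segments of each V class in every library with at least 100 counts of the class, the members called, the 4 genes of each of 10 lists with the highest mean CPM, and the 10 other genes most like the immunoglobulin sum. Other genes, among them called genes of a list, were named after their values were seen. Some items are not reported here.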

Additional observations from a re-analysis of the deposited data

Results flagged for a closer look

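Each of 20 shares and levels within NPCTKO was set against the gap that 4 libraries of a group allow, a check that chance fails for about 1 value in 20. In 2 of them 1 library stood apart. The Ighm share of the heavy chain constant counts was 33.5% in NPCTKO 4, compared with 0.485 to 3.66% in the other 3. Jchain held 47.7 counts per 100 Igha counts in NPCTKO 3, compared with 7.59 to 13.1 in the other 3.

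Counts outside the rule for members were also read in NPCTKO 1. They were 193 for Gm43291, the gene that contains Igkc, 86 for 2010309G21Rik, the gene that contains Iglc1, Iglc3 and Iglv1, 38 for Ighd (the IgD constant gene) and 30 for Ighe (the IgE constant gene). Each exceeded the floor of 3 counts.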

How the results depend on the processing

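Of the immunoglobulin members, edgeR called 2 lower in NSCHRas-shp53 (2 also with DESeq2 size factors), both of which passed the filter only through NPCTKO. The number was 1 without TMM factors, 10 without a filter on low counts, 0 with at least 10 CPM in 3 libraries (6 members tested) and 42 by DESeq2, and it ran from 0 to 14 when 1 library was left out. Without NPCTKO 1 and 2 together it was 0, with 2 called higher, of which Ighv9-3 could only be higher in that fit. The libraries left out were those where Ighm, the other, was highest, so neither call is support for a difference. Of all genes, 2.54% were lower without a filter and 7.62 and 4.62% without NPCTKO 3 or 4, where 8 and 14 members were. In the lists, 6 genes were called higher and 12 lower, beside 7.77% of all genes higher and 5.28% lower. Higher calls numbered 2 with at least 10 CPM, 2 by limma at either pseudocount, 2 to 6 with 1 library left out and 14 without NPCTKO 1 and 2. Lower calls numbered 22 by DESeq2 and 4 to 21 with 1 library left out. Per kb of gene span, the immunoglobulin share was 3.57% in NPCTKO and 0.0612% in NSCHRas-shp53. The causes were not tested.

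The direction of 36 fitted values turned. Without NPCTKO 1 and 2 the log2 fold change was 0.80 for Igha, 1.41 for Ighg2b, 2.15 for Ighm, 0.21 for Jchain, 1.37 for Fcgr4, 1.00 for Vpreb3, 2.52 for S100a9, 2.61 for S100a8, 2.36 for Cd37, 0.85 for Cd22, 0.22 for Txndc5, 0.25 for Xbp1, 0.10 for Cxcr4, 0.71 for Lck, 0.89 for C1qa, 1.04 for Ctss, 1.18 for C1qc and 1.34 for C1qb. By limma on log2(FPKM + 1) it was 0.53 for S100a9 and 0.34 for Cd37, and on log2(FPKM + 0.1) 1.04 and 0.46. With 1 library left out, the log2 fold changes ran from -2.63 to 2.85 for S100a9, -2.24 to 2.32 for S100a8 (both above 0 without NPCTKO 1 alone), -2.05 to 0.55 for Retnlg, -0.33 to 0.55 for Fcer1g, -0.040 to 0.96 for Fcgr3, -0.12 to 1.31 for Gzmb and -0.053 to 1.58 for Cd8a.

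The replicate numbers did not pair the samples: deviations of same-numbered libraries correlated at 0.279, -0.193 and 0.193, and NPCTKO 2 correlated best with NSCHRas-shp53 1 (0.352). With the replicate block, 12 members and 9 list genes were lower (2.01% of all genes) and 3 list genes higher (4.46%), and the log2 fold change was 0.43 for S100a9 and 0.15 for S100a8. NPCTKO 4 has no partner in that fit.

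Of the other values of single genes, 697 kept direction and side of the threshold, 74 lost and 32 gained a call. Not run were 3 alternatives: FPKM for the members (the table names 2 of 162), the kappa share of constant counts (Igkc has 0 counts, so V counts were used, chosen after seeing the data, like the IgG share per kb of exon) and thinning of the leading share. Depth limits NPCTKO 4 most, with 41 Ighv counts.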

Other observations

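Constant genes and J segments whose symbols the rule does not hold were read at low counts. Ighd had 38, 10, 0 and 2 counts in NPCTKO 1 to 4 and 20, 3 and 6 in NSCHRas-shp53 1 to 3. Ighe had 30, 13, 0 and 0 counts, and 0, 1 and 0. Of the heavy chain J segments, Ighj4 had 12, 10, 1 and 0 counts in NPCTKO and Ighj1 10, 6, 0 and 2, while in NSCHRas-shp53 neither exceeded 3.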
